A study of Homo sapiens with 6 samples.

Results

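Serine, one-carbon, proline and asparagine synthesis was followed here through 10 genes of a table of 60691 genes, matched by symbol: PHGDH, PSAT1, PSPH, SHMT1, SHMT2, MTHFD1, MTHFD2, ALDH18A1, PYCR1 and ASNS. Each symbol matched exactly 1 row, and all 10 passed the filter on low counts that left 16591 genes for testing. The RNA came from SW1353, an established human chondrosarcoma line (a malignant tumour that forms cartilage matrix), grown in 3% oxygen for 48 h after seeding. Both groups carried a lentivirus with a short hairpin RNA (shRNA): 3 shfirefly libraries, whose hairpin is directed at an insect luciferase absent from human cells, and 3 shSIRT1 libraries. The design addressed SIRT1, an NAD+-dependent deacetylase, and transcription by HIF-2α, the oxygen-regulated factor encoded by EPAS1. Only 1 line is represented, 1 hairpin name stands for the knockdown, and no uninfected or normal-oxygen group was analysed here.

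Cells make serine from the glycolytic intermediate 3-phosphoglycerate in a short chain of reactions, and asparagine and proline from aspartate and glutamate. Serine then gives up a carbon to folate, and this one-carbon unit can be processed by parallel sets of enzymes in mitochondria and in the cytosol before it is used for purines, thymidylate and methionine. Several of these genes are widely known as targets of ATF4, the transcription factor of the amino acid response, and some also of MYC. In tumours the mitochondrial arm and PHGDH are studied as supports of proliferation, and proline synthesis supplies an amino acid that collagen is rich in.

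Total counts ran from 24993064 to 32044191 per library. Levels are CPM, counts scaled to the library's size, here after TMM, a method that aligns libraries on the bulk of their genes. SIRT1 averaged 24.9 CPM in shfirefly and 13.6 CPM in shSIRT1, with an adjusted p of 2.3e-09 (edgeR quasi-likelihood test), and EPAS1 averaged 456 and 233 CPM. The treatment protocol names EPAS1 and the other labels name SIRT1, and both transcripts were lower, so the hairpin's target cannot be told apart from these values. Of 9 chondrocyte markers, SOX9 was well expressed (43.7 ± 2.54 CPM in shfirefly and 53.1 ± 1.17 CPM in shSIRT1, SD, n = 3) and rose (edgeR log2 fold change 0.28, adjusted p = 0.0001). MATN3 averaged 3.78 and 4.81 CPM (edgeR log2 fold change 0.35, adjusted p = 0.032), a call lost with upper-quartile scaling (adjusted p = 0.064). ACAN fell from 1.51 to 0.679 CPM (edgeR log2 fold change -1.16, adjusted p = 0.0018). The defining cartilage collagen COL2A1 had 2, 1 and 0 counts in shfirefly and 8, 19 and 3 in shSIRT1, and was not tested. SOX5, SOX6 and COMP averaged at most 0.113 CPM in either group and were not tested. COL11A2 averaged 0.932 CPM in shfirefly and 0.702 CPM in shSIRT1 and did not pass (edgeR adjusted p = 0.3). COL9A1 had no counts in any library, which allows up to 0.0968 to 0.115 CPM (3 counts per library, counting error only). Markers of leukocytes, macrophages, epithelium and endothelium (6 genes) averaged at most 1.17 CPM in either group, and none of the 3 that were tested passed, although KRT14 did without shSIRT1 replicate 2 (edgeR log2 fold change -0.91, adjusted p = 0.043). The macrophage marker CD68 shares 95.3% of its longest coding transcript with exons of another gene on its strand, so its low count is a weak check.

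The 10 genes did not move as a block. With shSIRT1, 6 fell, 3 rose and 1 did not pass (edgeR quasi-likelihood test, Benjamini-Hochberg adjusted p under 0.05 over all genes tested). Among all tested genes 52.8% were called, 26.0% lower and 26.8% higher, so a call as such was common in this comparison. Scaled by library totals only, 4 of the 10 genes were called higher and 5 lower, beside 6225 and 3021 of all tested genes. The falls lay in serine synthesis, the mitochondrial folate enzymes and asparagine synthetase, and the rises in the cytosolic folate enzymes and PYCR1. The median log2 fold change of the 10 genes was -0.31, against 0.00468 for all tested genes. For 9 of the 10, every shSIRT1 library lay on one side of all shfirefly libraries, which was true of 59.7% of tested genes. Summed over the 10 genes, the level was 1378, 1461 and 1367 CPM in shfirefly and 1155, 1198 and 1132 CPM in shSIRT1, a 1.21-fold lower mean (two-sided exact permutation p = 0.1, and 3 against 3 allows none smaller). In bulk RNA, fewer cells using a gene and less RNA per cell cannot be told apart.

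**Figure D1:**
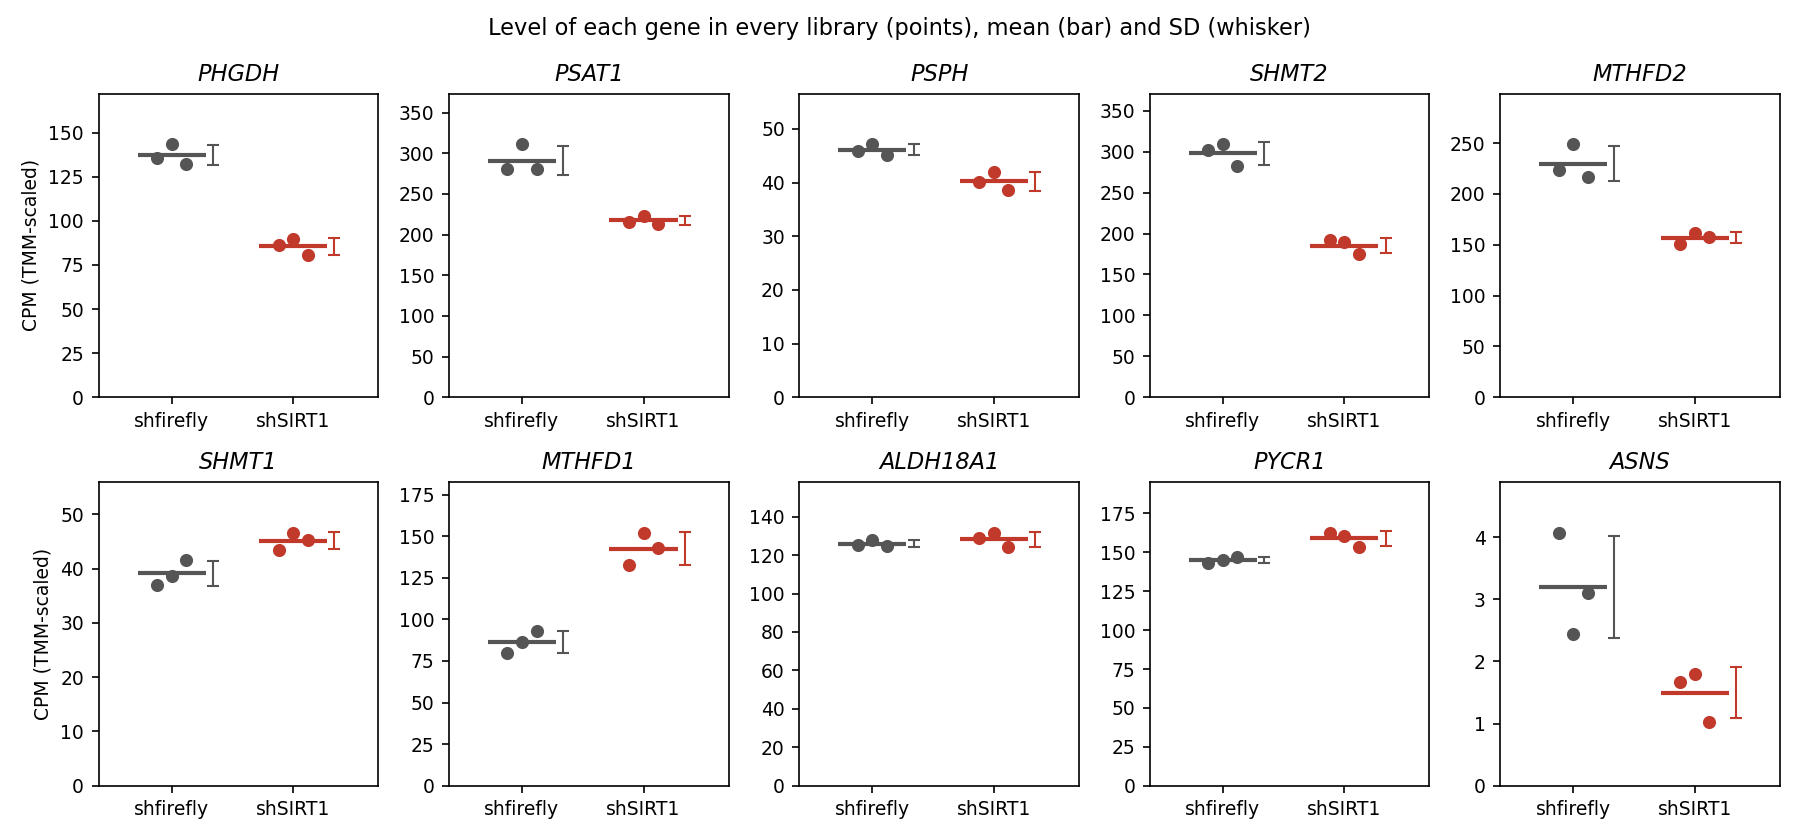
CPM of each of the 10 genes in the 3 shfirefly and 3 shSIRT1 libraries (points), with the mean (bar) and SD (whisker); every vertical axis starts at 0 and has its own scale. The groups overlap only for ALDH18A1, and SHMT1, MTHFD1 and PYCR1 are the genes with higher shSIRT1 points.

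All 3 enzymes of serine synthesis fell, with the largest fold change at the entry enzyme. PHGDH, phosphoglycerate dehydrogenase, oxidises 3-phosphoglycerate and commits it to serine. It stood at 136, 144 and 132 CPM in shfirefly and at 86.4, 89.6 and 80.5 CPM in shSIRT1. Every shSIRT1 value was below every control value, and PHGDH fell 1.60-fold (edgeR log2 fold change -0.68 ± 0.05 SE, adjusted p = 6.7e-11). PSAT1, the aminotransferase of the second step, had 281, 311 and 281 CPM in shfirefly. Its shSIRT1 libraries were close to each other at 216, 223 and 213 CPM, and the gene fell 1.34-fold (edgeR log2 fold change -0.42 ± 0.04 SE, adjusted p = 2.8e-08). PSPH, the phosphatase that releases serine, had 45.9, 47.2 and 45.2 CPM in shfirefly and 40.1, 41.9 and 38.6 CPM in shSIRT1. That 1.15-fold fall was small but outside the spread of the libraries (edgeR log2 fold change -0.20 ± 0.05 SE, adjusted p = 0.0033). The 95% intervals of the 3 log2 fold changes did not overlap, running from -0.78 to -0.59 for PHGDH, from -0.51 to -0.33 for PSAT1 and from -0.30 to -0.087 for PSPH; the differences between genes were not tested. A fall larger than that of PHGDH was seen in 9.16% of tested genes, and one larger than that of PSPH in 31.8%.

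The PSPH call depended on scaling and on a correction for base composition and length. Its log2 fold change was -0.075 (adjusted p = 0.22) when libraries were scaled by their totals alone, a choice that moved the median of all tested genes to 0.126, and -0.11 (adjusted p = 0.079) once an offset corrected for the GC content and length of transcripts. PSPH also has a transcribed copy, PSPHP1, which held 264, 242 and 290 counts in shfirefly and 197, 171 and 149 in shSIRT1 beside 1275 to 1410 and 1009 to 1286 counts for PSPH; reads may have been split between them. With both summed, a choice made after seeing the data, the log2 fold change was -0.26 (adjusted p = 0.00015). PHGDH (chromosome 1, 119648411 to 119744226, forward strand), PSAT1 (chromosome 9, 78297143 to 78330093, forward strand) and PSPH (chromosome 7, 56011051 to 56051604, reverse strand) overlapped no other annotated gene in GENCODE 29 on GRCh38.

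The mitochondrial folate enzymes fell about as far as PHGDH. SHMT2, the mitochondrial serine hydroxymethyltransferase, splits serine into glycine and a folate-bound carbon. It stood at 302, 309 and 283 CPM in shfirefly and at 192, 189 and 174 CPM in shSIRT1. The groups were well apart, and SHMT2 fell 1.61-fold (edgeR log2 fold change -0.68 ± 0.04 SE, adjusted p = 4e-11). MTHFD2, the mitochondrial dehydrogenase and cyclohydrolase that oxidises that carbon, had 224, 249 and 217 CPM in shfirefly. In shSIRT1 it had 151, 161 and 158 CPM, again without overlap, a 1.47-fold fall (edgeR log2 fold change -0.55 ± 0.05 SE, adjusted p = 1.5e-08). SHMT2 lies on chromosome 12 (57229327 to 57234935, forward strand) and MTHFD2 on chromosome 2 (74198562 to 74217565, forward strand), and each overlaps 2 genes on the opposite strand, which matters only if counting ignored strand.

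The cytosolic counterparts moved the other way. MTHFD1, a trifunctional cytosolic enzyme that interconverts the same folate forms, had 79.9, 86.3 and 93.3 CPM in shfirefly and 133, 152 and 143 CPM in shSIRT1. It rose 1.65-fold (edgeR log2 fold change 0.72 ± 0.06 SE, adjusted p = 2.5e-07), the largest rise among the 10 genes, and 5.94% of tested genes rose by more. SHMT1, the cytosolic serine hydroxymethyltransferase, had 37.0, 38.7 and 41.7 CPM in shfirefly and 43.5, 46.6 and 45.4 CPM in shSIRT1. The gap between the highest control and the lowest shSIRT1 library was narrow, and SHMT1 rose 1.15-fold (edgeR log2 fold change 0.21 ± 0.06 SE, adjusted p = 0.0035). MTHFD1 lies on chromosome 14 (64388031 to 64463457, forward strand) with 3 genes on the opposite strand. SHMT1 lies on chromosome 17 (18327860 to 18363563, reverse strand) with 1 gene on the opposite strand and a microRNA gene, MIR6778, within it.

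**Figure D2:**
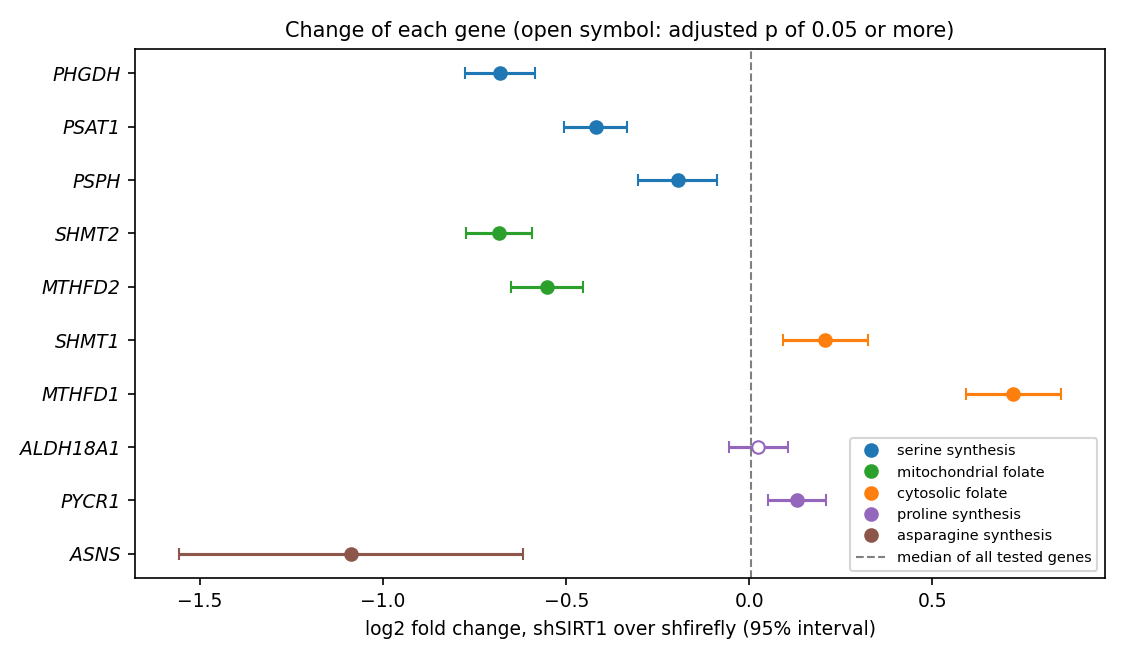
Log2 fold change of each gene, shSIRT1 over shfirefly, with its 95% interval from the edgeR fit; colours mark the role, the open symbol did not pass, and the dashed line is the median of all tested genes. Serine synthesis, mitochondrial folate and ASNS lie left of the line, the cytosolic folate enzymes and PYCR1 right of it, and ASNS has the widest interval.

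Ratios of counts within a library, which do not depend on how libraries are scaled, differed most for the folate pairs. The ratio of SHMT2 to SHMT1 counts was 8.17, 7.996 and 6.78 in shfirefly and 4.42, 4.05 and 3.85 in shSIRT1, a difference of -0.89 on the log2 scale. The ratio of MTHFD2 to MTHFD1 was 2.80, 2.88 and 2.32 in shfirefly. In shSIRT1 it was 1.14, 1.06 and 1.10, so the counts of the pair had come close to equal, a log2 difference of -1.27. Neither ratio overlapped between groups. Summed by compartment, SHMT2 and MTHFD2 gave 526, 558 and 499 CPM in shfirefly against 343, 351 and 332 CPM in shSIRT1, while SHMT1 and MTHFD1 gave 117, 125 and 135 CPM against 176, 199 and 188 CPM. Across the 4 ratios computed, 3 of which are given, each exact two-sided permutation p was 0.1, the smallest possible with 3 against 3, and 0.1 after Benjamini-Hochberg adjustment. Per length of the longest coding transcript the mitochondrial transcript remained the more abundant of each pair: the scaled SHMT2 to SHMT1 ratio went from 7.43 to 3.99 and the MTHFD2 to MTHFD1 ratio from 4.08 to 1.68.

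**Figure D3:**
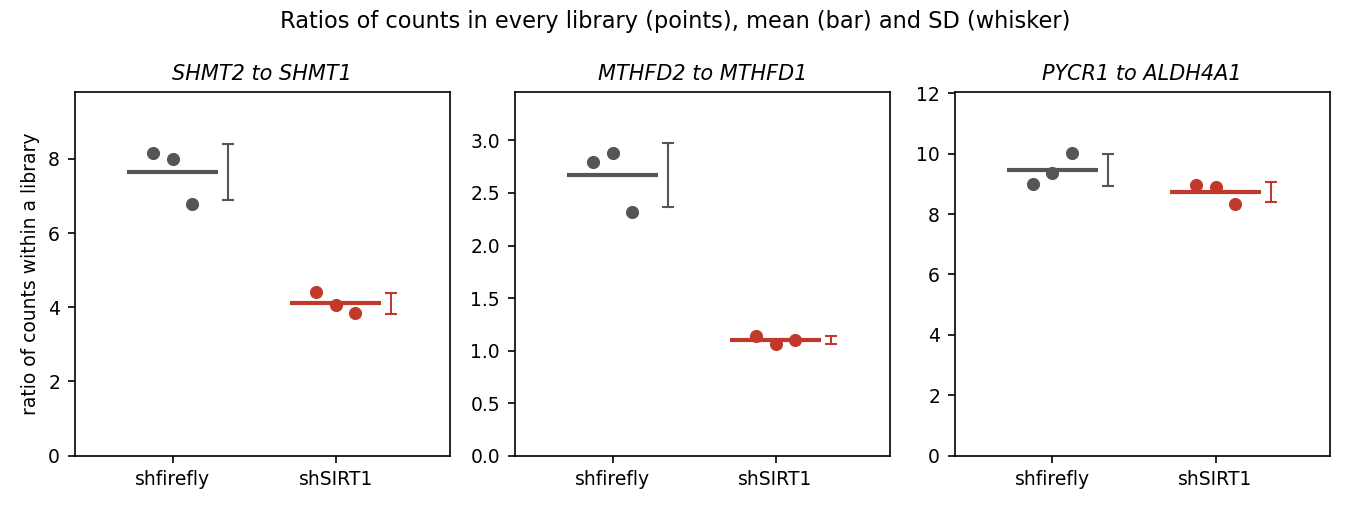
Ratio of the counts of 2 genes within each library (points), with mean (bar) and SD (whisker), on axes that start at 0. SHMT2 to SHMT1 falls from 6.78 or more to 4.42 or less and MTHFD2 to MTHFD1 from 2.32 or more to 1.14 or less, while the ratio of PYCR1 to ALDH4A1 differs little.

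Proline synthesis changed least. ALDH18A1 encodes the bifunctional synthase that turns glutamate into the precursor of proline and ornithine. It had 125, 128 and 125 CPM in shfirefly and 129, 132 and 124 CPM in shSIRT1, so the groups overlapped, and it did not pass (edgeR log2 fold change 0.03, 95% interval -0.056 to 0.11, adjusted p = 0.62). With library totals alone its log2 fold change was 0.15 and passed (adjusted p = 0.0022), and with upper-quartile scaling it was -0.024 (adjusted p = 0.63). PYCR1, the mitochondrial reductase of the last step, had 143, 145 and 147 CPM in shfirefly and 163, 160 and 154 CPM in shSIRT1. It rose 1.09-fold (edgeR log2 fold change 0.13 ± 0.04 SE, adjusted p = 0.0067), a call lost without shfirefly replicate 1 (0.11, adjusted p = 0.059) and with upper-quartile scaling (0.081, adjusted p = 0.079).

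Neighbours of PYCR1 in proline metabolism were less abundant. PYCR3, a cytosolic reductase of the same step, rose from 4.72 ± 0.703 to 8.96 ± 0.378 CPM (± SD of 3 libraries; edgeR gave a log2 fold change of 0.93, adjusted p = 1.1e-06). PRODH and PRODH2, which start proline breakdown, had no counts in any library (the same upper limit as for COL9A1), and ALDH4A1, which completes it, rose from 15.4 to 18.2 CPM (edgeR log2 fold change 0.24, adjusted p = 0.0082), a call lost without both libraries numbered 3 (0.20, adjusted p = 0.063). The PYCR1 to ALDH4A1 ratio moved from 9.46 ± 0.532 to 8.73 ± 0.336 (SD, n = 3). Annotated exons of other genes on the same strand cover 45.1% of the longest coding transcript of ALDH4A1. ALDH18A1 lies on chromosome 10 (95605929 to 95656706, reverse strand) and PYCR1 on chromosome 17 (81932384 to 81942412, reverse strand). PYCR1 overlaps MYADML2 on its own strand, a gene with no counts in any library.

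ASNS, asparagine synthetase, which makes asparagine from aspartate and glutamine, had the largest fold change and by far the lowest level. Its counts were 125, 66 and 96 in shfirefly and 51, 55 and 27 in shSIRT1, or 4.07, 2.44 and 3.10 CPM against 1.66, 1.79 and 1.03 CPM. The groups did not overlap, although the control libraries were spread widely, and ASNS fell 2.13-fold (edgeR log2 fold change -1.09 ± 0.22 SE, 95% interval -1.56 to -0.62, adjusted p = 0.00038). The transcribed pseudogene ASNSP1 was counted more often than ASNS itself, with 197, 193 and 210 counts in shfirefly and 93, 86 and 90 in shSIRT1. ASNS lies on chromosome 7 (97852118 to 97872542, reverse strand), inside the span of AC079781.5, annotated as a processed transcript on the same strand (9 to 18 counts per library). Exons of AC079781.5 cover 1985 of the 2356 bases of the longest coding ASNS transcript, or 84.3%. How reads shared by 2 genes were counted is not stated in the labels, and the part of this overlap in the level of ASNS was not tested. With ASNS, ASNSP1 and AC079781.5 summed, a choice made after seeing the data, the log2 fold change was -1.06 (adjusted p = 2.4e-08).

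Levels can be ranked between genes only per length. In shfirefly, CPM per kilobase of the longest coding transcript ran from 133 ± 8.03 for PSAT1 and 117 ± 5.48 for SHMT2 through 76.3 ± 0.931 for PYCR1 (SD, n = 3) to the group of PHGDH (53.1), MTHFD2 (51.6) and ALDH18A1 (37.5). PSPH (21.2), SHMT1 (15.9) and MTHFD1 (12.7) were lower, and ASNS was last at 1.36 ± 0.348. The ranges of PHGDH and MTHFD2 overlapped, so their order was not resolved. In shSIRT1 the order began with PSAT1 at 99.4 ± 2.34, PYCR1 at 83.5 ± 2.45 and SHMT2 at 73.0 ± 3.74 CPM per kilobase (SD, n = 3), which puts PYCR1 above SHMT2. MTHFD1 (20.9) moved from below SHMT1 to above it, and the ranges of MTHFD2 and PHGDH and those of PSPH and SHMT1 overlapped. The order rests on the transcript chosen: with all annotated exons merged, PHGDH was 7th in shfirefly. With merged exons MTHFD1 and SHMT1 also did not change places. MTHFD1 was then the higher in shfirefly (9.22 against 5.37 CPM per kilobase) and in shSIRT1 (15.2 against 6.20).

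**Figure D4:**
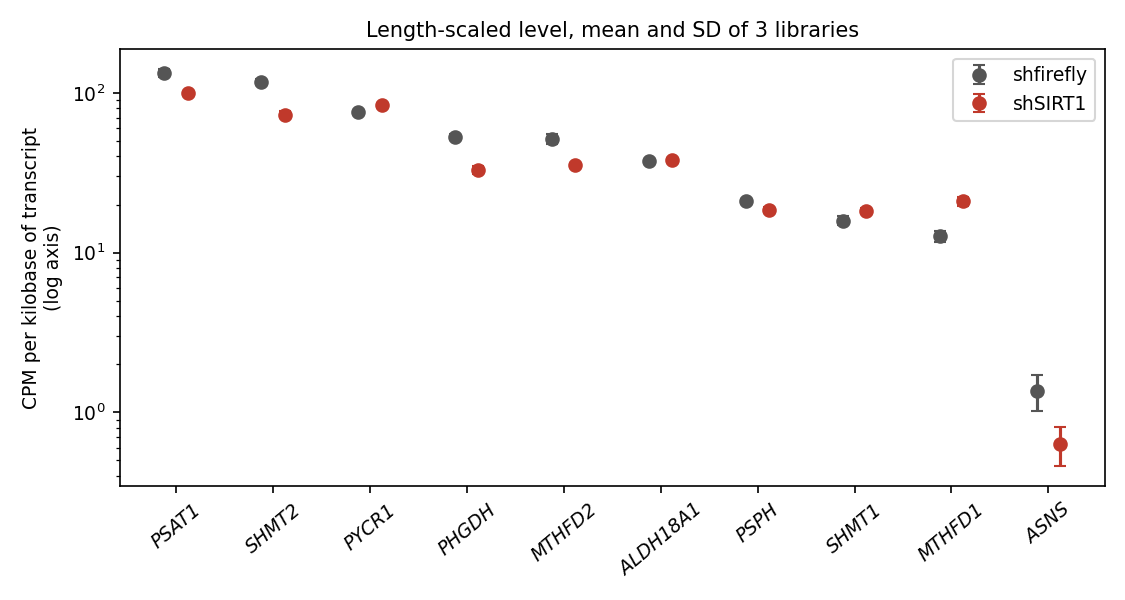
Level per kilobase of the longest coding transcript on a log axis, mean and SD of 3 libraries per group, in the order of the shfirefly means. ASNS lies at 1.36 and 0.635, more than an order of magnitude below the other genes except MTHFD1 in shfirefly (12.7), and PYCR1 and SHMT2 change places between groups.

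Genes around the pathway were read from 7 further lists, of 91 genes in all, 78 of them tested. Of these, 28 rose, 30 fell and 20 did not pass (median log2 fold change -0.039). Among all tested genes 52.8% were called, 26.8% higher and 26.0% lower. With library totals alone 36 of the listed genes rose and 19 fell, beside 6225 and 3021 of all tested genes. Among 18 tested folate enzymes and carriers 8 rose and 6 fell (median log2 fold change 0.0080), a balance that turned with scaling: 5 rose and 6 fell with upper-quartile factors, and 8 rose and 3 fell with library totals alone. ALDH1L1 and ALDH1L2, the cytosolic and mitochondrial enzymes that burn formyl-folate to carbon dioxide, both fell, from 12.9 to 7.22 CPM (edgeR log2 fold change -0.84, adjusted p = 2.1e-07) and from 124 to 75.6 CPM (edgeR log2 fold change -0.71, adjusted p = 8.3e-12), so this pair did not split by compartment. MTHFD1L, which finishes the mitochondrial arm, fell little (-0.18, adjusted p = 0.0008), and did not pass with library totals alone (-0.059, adjusted p = 0.21). MTHFD2L, a low-level relative of MTHFD2, had a log2 fold change of 0.48 (adjusted p = 0.031) that was lost without shfirefly replicate 1 or 2 or shSIRT1 replicate 1 or 3 (0.40 to 0.43, adjusted p = 0.095 to 0.12), with DESeq2, with upper-quartile factors and with the GC and length offset (0.28, adjusted p = 0.17). The proton-coupled folate transporter SLC46A1 rose from 1.58 to 3.80 CPM and the sideroflexin SFXN2 from 3.33 to 7.16 CPM. TYMS, thymidylate synthase, a main user of the cytosolic carbon and chosen after its values were seen, rose from 359 ± 16.5 to 502 ± 21.3 CPM (± SD of 3 libraries; edgeR gave a log2 fold change of 0.48, adjusted p = 2.4e-09).

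Serine and glycine use showed 3 rises and 1 fall among 10 tested genes, beside 26.8% higher and 26.0% lower among all tested genes. GLDC, of the glycine cleavage system, had a log2 fold change of 1.27 at a mean of 0.372 and 0.894 CPM, a call lost without shSIRT1 replicate 1 (1.00, adjusted p = 0.065). SPTLC2, a subunit of the enzyme that starts sphingolipid synthesis from serine, rose (0.24, adjusted p = 6.8e-05), and its relative SPTLC3 had -0.35 (adjusted p = 0.033), lost without shfirefly replicate 2 or 3 or any 1 shSIRT1 library (-0.39 to -0.27, adjusted p = 0.052 to 0.15). Without shSIRT1 replicate 1 the list had 2 calls, and with library totals alone 6 rose and none fell at that threshold. In the methionine cycle 5 of 11 rose and 4 fell, and with library totals alone 7 rose and 1 fell. MAT1A, an S-adenosylmethionine synthetase, rose from 1.34 to 3.34 CPM and MTAP, the methionine salvage enzyme, from 37.9 to 66.0 CPM, whereas CBS and CTH, the enzymes that pass serine and homocysteine to cysteine, had log2 fold changes of -0.71 and -0.26 (adjusted p = 6.4e-06 and 0.0022, edgeR). The CTH call was lost with library totals alone (-0.14, adjusted p = 0.073).

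More of the proline, glutamate and aspartate genes rose than fell. Of 8 tested proline, ornithine and glutamate genes 5 rose and 2 fell (6 and 1 with library totals alone). Among all tested genes 26.8% were called higher and 26.0% lower (6225 and 3021 genes with library totals alone). PYCR3, given above, had the largest rise of them. Arginase ARG2 fell from 42.5 to 23.6 CPM (-0.85, adjusted p = 9.2e-09), and PEPD, which frees proline from dipeptides, had -0.22 (adjusted p = 0.0017, and 0.12 with library totals alone). Of 8 tested aspartate and asparagine genes 4 rose and 2 fell. The mitochondrial transaminase GOT2 rose from 110 to 153 CPM (0.48, adjusted p = 1.3e-09) and the asparaginase ASRGL1 from 1.69 to 3.11 CPM (0.87, adjusted p = 0.0007), while ASL (-0.42) and the glutamate and aspartate carrier SLC1A3 (-0.39) fell.

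Neutral amino acid transporters and the known regulators had negative medians. Among 10 tested transporters 7 fell and none rose at that threshold, with a median log2 fold change of -0.45, beside 26.0% lower among all tested genes. With library totals alone 5 fell and 1 rose. SLC38A5 fell from 12.4 to 6.18 CPM (-1.01, adjusted p = 9.6e-08) and SLC7A5, the large neutral amino acid exchanger, from 128 to 74.4 CPM (-0.78, adjusted p = 1.5e-11, edgeR). Of 13 regulators 8 fell and 3 rose (median -0.49), beside 26.0% lower and 26.8% higher among all tested genes. ATF4 fell from 471 ± 20.8 to 297 ± 3.83 CPM (± SD of 3 libraries, edgeR log2 fold change -0.67, adjusted p = 5.1e-12). MYC had a log2 fold change of -0.49 (adjusted p = 3e-08, edgeR), and DDIT3 (-1.58) and TRIB3 (-1.31) fell most of the 13. ATF5 (0.78) and the amino acid sensing kinase EIF2AK4 (0.27) rose. Among 4 glycolytic enzymes on either side of 3-phosphoglycerate, all 4 fell, PGK1 by 0.71 and GAPDH by 0.63 on the log2 scale. These lists were chosen with earlier results of the same libraries known, and their counts describe these libraries only.

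**Figure D5:**
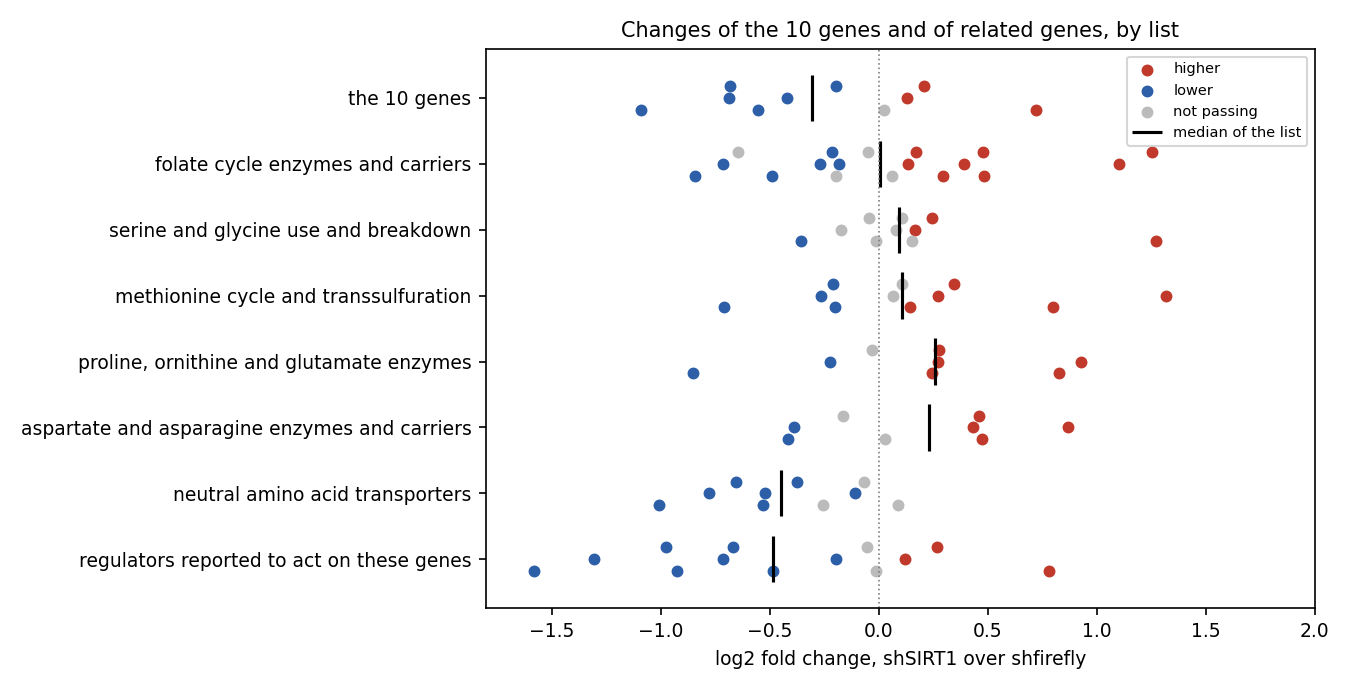
Log2 fold change (shSIRT1 over shfirefly) of every tested gene of the 10 and of 7 related lists; red points rose, blue points fell, grey points did not pass, and the black line is the list's median. Transporters (median -0.45) and regulators (-0.49) lie mostly on the left, proline, ornithine and glutamate enzymes (0.26) mostly on the right, and the 10 genes on both sides.

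Promoter sequence was available for 7 of the 10 genes in RefSeq (GRCh38.p14); PSPH, SHMT2 and PYCR1 had no entry. The 250 bases before each RefSeq start, which for PHGDH, SHMT1, MTHFD1, MTHFD2 and ASNS lies inside the GENCODE gene span, were searched on both strands for the C/EBP-ATF response element TGATGNAA, the E-box CACGTG bound by MYC and related factors, the hypoxia response element core ACGTG (contained in CACGTG on both strands), and the CCAAT box. The C/EBP-ATF element occurred in 1 of the 7 genes, ASNS, and in 3.14% of 35116 promoters. ASNS had 2 promoter entries, and the element lay in 1 of them. The E-box occurred in 2, MTHFD1, which rose, and ALDH18A1, which did not pass (6.34% of promoters), and CCAAT in 5, PHGDH, PSAT1, SHMT1, MTHFD1 and MTHFD2, which fell or rose (32.01% of promoters). The core ACGTG outside an E-box was found in ALDH18A1 and MTHFD2; 18.5% of promoters hold it anywhere. The stretches shown, 1 per gene, come from genes that fell and genes that did not, and the motif differs between genes. Further matches in PSAT1, SHMT1, MTHFD1, MTHFD2 and ALDH18A1 are left out, among them a CCAAT box 216 bases before the MTHFD1 start. The choice therefore does not compare the genes. Capitals mark the motif, read 5′ to 3′ on the gene's strand.
ASNS, 68 bases before the start, reverse strand, chr7:97872453-97872492: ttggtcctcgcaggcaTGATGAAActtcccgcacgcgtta
PHGDH, 71 bases before the start, forward strand, chr1:119711847-119711883: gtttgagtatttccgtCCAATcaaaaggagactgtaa
PSAT1, 52 bases before the start, forward strand, chr9:78297057-78297093: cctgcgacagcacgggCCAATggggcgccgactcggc
MTHFD2, 74 bases before the start, forward strand, chr2:74198525-74198561: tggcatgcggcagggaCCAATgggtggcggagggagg
SHMT1, 76 bases before the start, reverse strand, chr17:18363606-18363642: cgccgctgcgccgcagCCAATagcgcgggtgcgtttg
MTHFD1, 15 bases before the start, forward strand, chr14:64388322-64388352: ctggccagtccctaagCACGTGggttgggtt
ALDH18A1, 136 bases before the start, reverse strand, chr10:95656826-95656863: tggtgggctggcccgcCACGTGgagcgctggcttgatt
CCAAT stood before genes that fell and before genes that rose. A match is a stretch of letters and not a measured binding site, and these windows leave out introns and more distant sequence.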

How the data were processed

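RNA sequencing was compared between 3 shSIRT1 and 3 shfirefly libraries. Trimmomatic, STAR, DESeq2 and GRCh38 are listed, without versions, per the submitters' processing notes; the counter, annotation and strand setting are not given in any source used here. Raw read counts per gene are the authors', whole numbers as deposited. Normalized counts rounded by the authors (a score) were not used, nor were the authors' fold change ratio, log2 fold change, p-value and adjusted p-value. TruSeq Stranded mRNA libraries were made, per the labels' protocols. Columns were matched to samples by name. The design text calls the samples biological replicates.

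Genes were kept by edgeR filterByExpr (16591), scaled by TMM and tested with edgeR 4.0.16 (robust glmQLFit, glmQLFTest, group alone; R 4.3.3), adjusted by Benjamini-Hochberg over all tested genes, threshold 0.05. SE was taken as |log2 fold change| over the square root of F. Alternatives were other scalings, DESeq2 1.42.0, other filters, a replicate block, an offset for transcript GC and length (natural splines, 5 degrees of freedom; 99.1% of tested genes had both), left-out libraries and, added after seeing the data, summed copies. The procedure was tested on simulated counts with few changed genes, balanced up and down. Those counts do not cover a comparison with 52.8% of genes called. Positions and exons are from GENCODE 29. The 10 genes and all lists were chosen with earlier results of these data known. Genes named outside the 10 were the hairpin targets, up to 2 largest called rises and falls per list, paralogs, ATF4, MYC and the 5 genes of most similar profile; exceptions are stated, and 2 of these genes and 1 ratio are not reported here. Intervals of counts cover counting error only.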

Additional observations from a re-analysis of the deposited data

How the results depend on the processing

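Across 16 alternatives per gene, PHGDH, PSAT1, SHMT2, MTHFD2, MTHFD1, SHMT1 and ASNS kept their direction and their call, with log2 fold changes of -0.73 to -0.56, -0.47 to -0.30, -0.73 to -0.56, -0.60 to -0.43, 0.66 to 0.84, 0.16 to 0.33 and -1.24 to -0.89. The calls that changed were small effects. With library totals alone PSPH was -0.075 (adjusted p = 0.22) and ALDH18A1 0.15 (adjusted p = 0.0022), which made the split of the 10 genes 4 higher and 5 lower. PSPH was also lost with the GC and length offset (-0.11, adjusted p = 0.079), and PYCR1 with upper-quartile factors (0.081, adjusted p = 0.079). Leaving out each library in turn gave PYCR1 values of 0.11 to 0.15, and the call was lost without shfirefly replicate 1 only. The number of the 10 genes called was 8 or 9 under every alternative run. Over the 7 related lists 51 to 60 genes were called. The reported fit gave 28 higher and 30 lower, beside 4449 and 4311 of all tested genes. Library totals alone gave 36 higher and 19 lower, beside 6225 and 3021 of all tested genes. Under that scaling SPTLC1 (0.11), GLUD1 (0.090) and SLC38A1 (0.011), which passed under one scaling or the other, changed sign, as did 5 listed genes that passed under neither. With upper-quartile factors 2 genes that passed under neither changed sign, ALDH18A1 and GOT1. The replicate numbers did not pair the libraries (correlations of same-numbered deviations -0.0102, -0.0666 and 0.132). With the replicate block 9 of the 10 genes were called, 3 higher and 6 lower, and 9176 genes in all against 8760 without it. The adjusted p of the ratios cannot go below 0.1, so those tests say nothing of stability. ASNS had the fewest counts of the 10 genes, 27 to 125 per library.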

Other observations

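ASNS was not the only listed gene whose transcript lies mostly in another annotated gene. Among 19596 protein-coding genes of the table with a coding transcript in GENCODE 29, 520 share 80% or more of the longest one with exons of another gene on the same strand. Their median was 0 counts per kilobase over the 6 libraries, and 57.3% had no read at all. The 17176 genes that share no base had a median of 391 counts per kilobase and 12.7% without a read. From the lists used here the group of 520 holds ASNS (178 counts per kilobase), SLC25A32, the mitochondrial folate carrier (50.2 counts per kilobase, 88.1% shared), AMT of the glycine cleavage system (2.63, 99.9% shared) and the macrophage marker CD68 (5.32, 95.3% shared). A further 1900 genes share some bases but under 80%, with a median of 329 counts per kilobase and 7.84% without a read. MTHFS, a folate enzyme, is among them (58.5% shared, 73.8 counts per kilobase). Whether the counting rule lowered the values of the listed genes was not tested, and their levels are those of the deposited counts only.

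The 5 genes whose profile over the 6 libraries lay nearest to the mean profile of the 10 (log2 CPM minus the shfirefly mean, root-mean-square distance, among 10801 genes averaging at least 5 CPM) were CDH24, HYOU1, WLS, SNAPIN and SMARCD3, with distances of 0.0158 to 0.0237. HYOU1, a chaperone of the endoplasmic reticulum, fell from 258 to 217 CPM and WLS, a carrier of Wnt proteins, from 82.7 to 69.4 CPM. That mean profile averages genes that rose with genes that fell, so none of the 10 has exactly this shape.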
